A study of Homo sapiens with 45 samples.

Results

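The arrays described are those of A375 cells transfected with siRNA-CDC2 and with siRNA-CDC25B, 2 of the 39 arrays with a targeting siRNA and 2 of the 45 arrays in all. They were chosen by their targets, the kinase CDK1 (CDC2 is its older gene name) and its activating phosphatase CDC25B. Each was set against the 7 other siRNA arrays of the same batch, named KD1 by the study. Genes were then collected that lay outside the range of those 7 on the same side in both arrays. They also had to differ from the median of the 7 by at least 0.3 (log2) in both. Of 4800 genes measured above noise, 9 met that rule, 8 higher and 1 lower.

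The study knocked down regulators of growth and the cell cycle in A375, an established human melanoma line, to follow how transcripts move with one another when 1 gene is reduced. Cells received a pool of siRNAs against 1 gene, and total RNA was taken 48 h later and hybridised to Affymetrix U133 plus 2.0 arrays. The comparison arrays carried siRNA-CDK7, siRNA-CTNNB1, siRNA-FOXO3A, siRNA-HSF2, siRNA-PCNA, siRNA-RB1 and siRNA-TCEA1, so that every comparison array was itself a knockdown and the comparison group was not untreated. Each siRNA pool had 1 culture and 1 array, with no second pool against the same gene, so no value of a single siRNA has a replicate, and an effect of the lost target and one of the pool on other transcripts cannot be told apart. The labels and the study's methods give different siRNA concentrations, and neither is used here. Values are also given for control siRNA (3 arrays), untreated (3 arrays) and cells with siRNA against the cyclins CCNB1 and CCNA2 (batch KD2) or CCNB2 (batch KD3).

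CDK1 is the kinase that drives a cell from G2 phase into mitosis. It works only when bound to a cyclin, of the A type and then the B type, and when the inhibitory phosphates that WEE1 and PKMYT1 place on it have been removed by a CDC25 phosphatase. CDC25B is the family member usually described as the starter of this step, with CDC25C and PLK1 acting in the feedback that follows. Transcripts of mitosis genes are themselves made mostly in G2 and M phase, under the transcription factors MYBL2 and FOXM1 bound with the MuvB complex to a promoter element called the CHR, often beside CCAAT boxes bound by the factor NF-Y.

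Because mitosis genes share that promoter element, the promoters of both siRNA targets, of a mitosis gene whose values differed between the arrays and of a pair of genes on the same side in both are shown. Each is the stretch of 250 bases before an annotated start site, 5′ to 3′ on the strand of the gene, from RefSeq on GRCh38.p14, and capitals mark each TTTGAA or TTCAAA (the CHR, either strand) and each CCAAT or ATTGG (the CCAAT box, either strand), which do not overlap in these stretches. CDK1 lies at chr10:60778228-60778477 (plus strand), CDC25B at chr20:3796060-3796309 (plus strand, 1 of its 4 annotated starts), CDC20 at chr1:43358731-43358980 (plus strand), JAG1 at chr20:10674000-10674249 (minus strand) and PPIL1 at chr6:36874804-36875053 (minus strand).
CDK1: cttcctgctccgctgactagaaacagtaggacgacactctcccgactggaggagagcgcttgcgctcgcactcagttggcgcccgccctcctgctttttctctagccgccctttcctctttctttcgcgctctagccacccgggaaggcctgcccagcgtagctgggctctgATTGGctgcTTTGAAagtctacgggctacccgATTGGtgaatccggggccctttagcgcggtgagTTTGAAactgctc
CDC25B: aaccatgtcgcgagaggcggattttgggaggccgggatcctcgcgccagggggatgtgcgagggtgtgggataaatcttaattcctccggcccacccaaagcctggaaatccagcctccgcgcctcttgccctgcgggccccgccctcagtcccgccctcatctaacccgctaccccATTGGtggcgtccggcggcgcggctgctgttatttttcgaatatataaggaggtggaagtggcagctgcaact
CDC20: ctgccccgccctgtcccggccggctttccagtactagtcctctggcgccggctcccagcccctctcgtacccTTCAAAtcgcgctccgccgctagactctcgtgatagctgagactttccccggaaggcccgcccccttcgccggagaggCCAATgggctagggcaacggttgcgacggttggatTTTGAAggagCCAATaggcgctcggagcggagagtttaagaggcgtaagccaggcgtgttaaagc
JAG1: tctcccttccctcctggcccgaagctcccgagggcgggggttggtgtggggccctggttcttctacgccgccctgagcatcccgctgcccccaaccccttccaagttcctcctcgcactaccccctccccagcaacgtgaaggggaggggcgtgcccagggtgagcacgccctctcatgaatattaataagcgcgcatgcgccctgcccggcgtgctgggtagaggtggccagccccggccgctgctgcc
PPIL1: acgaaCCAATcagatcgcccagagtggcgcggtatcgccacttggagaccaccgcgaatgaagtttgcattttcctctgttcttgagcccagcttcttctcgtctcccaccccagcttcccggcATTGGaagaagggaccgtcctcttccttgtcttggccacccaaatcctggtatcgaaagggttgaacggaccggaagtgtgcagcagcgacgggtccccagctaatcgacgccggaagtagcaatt

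The CDK1 stretch held 2 CHR and 2 CCAAT matches, as did that of CDC20, the activator of the anaphase-promoting complex. The CDC25B stretch held 1 CCAAT match and no TTTGAA or TTCAAA, JAG1 held no match of either kind and PPIL1 held 2 CCAAT matches. Other spellings of the CHR or the CCAAT box were not searched. Of 57 listed G2/M and mitosis genes, 49 were found in the promoter table, and 57.1% of these had a CHR match and 77.6% a CCAAT match in at least 1 of their stretches, against 16.1% and 37% of all 27305 genes. Of the 9 genes on the same side in both arrays, 7 were found there, 0 had a CHR match and 3 (PPIL1, S100A16 and ZNF277) had a CCAAT match. A match is a description of the letters only, and which start site A375 cells use was not measured.

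Values below are log2 of the deposited intensity, and a difference is the log2 value of an array less the median of the 7 comparison arrays. A gene is its probe set with the highest mean. Above noise means a median over the 45 arrays of at least 1.5 times that of a spiked control probe set for BioB, or 8.59 on the log2 scale. The median log2 value of all probe sets was 5.06 in the siRNA-CDC2 array and 5.07 in the siRNA-CDC25B array. Of the markers of melanoma lines 8 of 13 were above noise, among them SOX10, the neural crest factor, with log2 values of 11.89 and 11.69, while the pigment genes PMEL, MLANA and TYR were below noise. Of 9 epithelial markers only KRT18 was above noise, and of 10 leukocyte markers 0 were. The siRNA-CDC25B array was close to the comparison array of siRNA-CDK7, with 51.4% of probe sets within 10% of each other, and the control siRNA array and the untreated array numbered 3 agreed within 10% at 95.4% of probe sets, so that they may share 1 sample. The part of either likeness in the results was not tested.

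CDK1 mRNA was lower in the siRNA-CDC2 array than in any other of the 45 arrays. Its log2 value was 9.24 there, against 10.13, 10.43, 10.08, 10.34, 10.05, 10.74 and 9.79 in the siRNA-CDK7, CTNNB1, FOXO3A, HSF2, PCNA, RB1 and TCEA1 arrays (SD 0.31, n = 7). The difference from their median was −0.89, a 1.85-fold lower value that left 54.1% of the transcript. The other 2 CDK1 probe sets above noise gave −0.80 and −0.80 and the one below noise −0.69, each below all 7 comparison arrays. In limma, which sets the array against the mean of the 7, the change was −0.98 (SE 0.27) with an unadjusted p of 0.00309 and an adjusted p of 0.971 over 54675 probe sets.

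CDC25B mRNA was lower in the siRNA-CDC25B array than in any other of the 45. The log2 value was 8.91 there, against 10.18, 10.43, 10.47, 10.35, 10.74, 10.47 and 10.63 in the comparison arrays in the same order (SD 0.18, n = 7). The difference from the median was −1.56, or 2.94-fold lower, and limma gave an adjusted p of 0.161 on the only probe set of the gene. In limma fits to probe sets above noise only and to all 39 siRNA arrays with batch as a term, that adjusted p was 0.0203 and 1.41e-06, under the threshold of 0.05. An exact rank test of 1 array among 9 cannot give a one-sided p below 0.111. Control siRNA arrays averaged 10.28 ± 0.33 (SD, n = 3) and untreated arrays 10.27 ± 0.17 (SD, n = 3) for CDC25B. For CDK1 they averaged 10.52 ± 0.16 and 10.80 ± 0.26, above the median of the comparison arrays. From the control siRNA median, CDC25B differed by −1.38 and CDK1 by −1.29, each in the array of its own siRNA. Relative to the median of all arrays, the study reported a larger fold reduction for CDC2 than for CDC25B.

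By the probe set used for each gene, in neither array was the transcript of the other target outside the comparison range. CDK1 stood at 10.35 in the siRNA-CDC25B array (difference 0.22), and CDC25B at 10.62 in the siRNA-CDC2 array (difference 0.15). The other CDK1 probe sets above noise gave 0.19 and 0.20 in the siRNA-CDC25B array, within range. The one below noise gave 0.19 in that array and lay above all 7. Set directly against each other, the siRNA-CDC2 array minus the siRNA-CDC25B array gave −1.11 for CDK1 and 1.70 for CDC25B, with unadjusted limma p of 0.0085 for CDK1 and 2.1e-05 for CDC25B and an adjusted p of 1 for both. CDC25B was the 1 probe set called between the arrays in limma with all 39 siRNA arrays (adjusted p 0.00019) and with an intensity trend (adjusted p 0.0049).

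**Figure D1:**
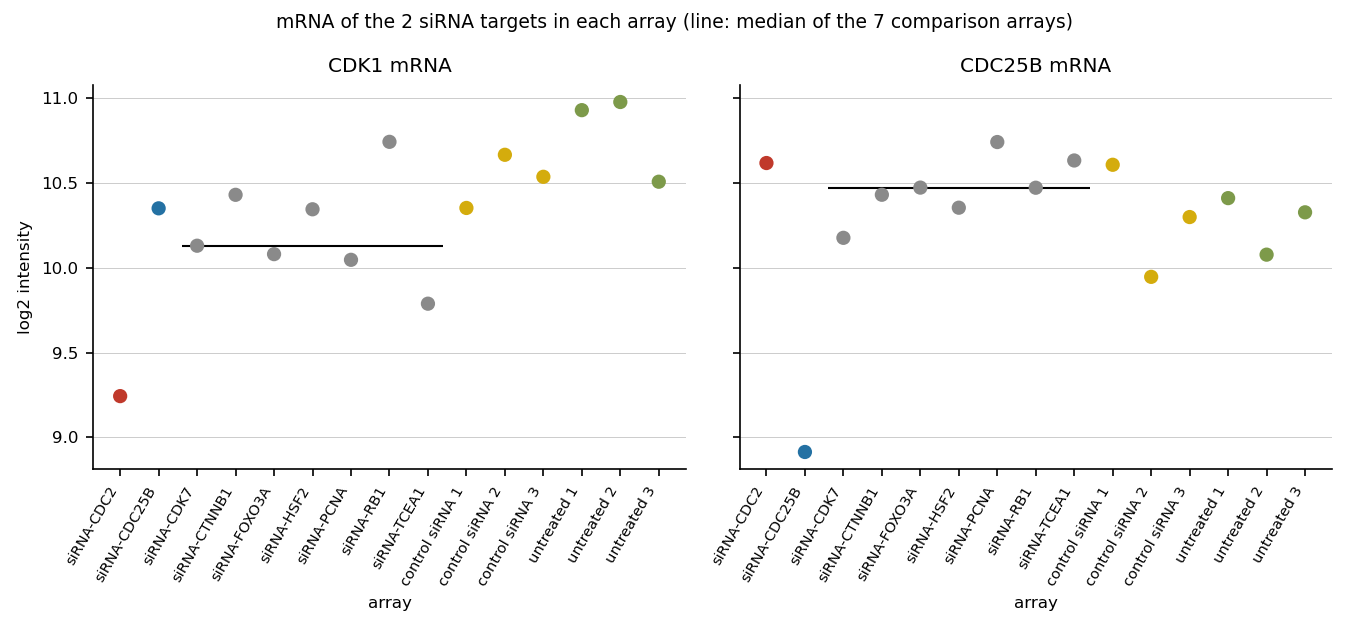
Log2 intensity of CDK1 mRNA (left) and CDC25B mRNA (right) in the 2 arrays, the 7 comparison arrays, 3 control siRNA and 3 untreated arrays, 1 point an array, with a line at the median of the 7. Each target is lowest in the array of its own siRNA (CDK1 9.24, CDC25B 8.91) and within the range of the comparison arrays in the array of the other.

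Across all probe sets the limma fit to the KD1 arrays had 1 array per siRNA and called neither target. An absence of calls there does not measure likeness to the batch. limma called 0 of 54675 probe sets (0%) at an adjusted p under 0.05 for siRNA-CDC2, for siRNA-CDC25B, for the mean of both and for one against the other, with 2636, 1264, 2559 and 1268 at an unadjusted p under 0.05. In that fit the lone array is assumed to vary like the 7 comparison arrays, and both comparisons share those 7. With all 39 siRNA arrays in the fit and batch as a term, 62, 2, 7 and 1 probe sets were called in the same order, of which 1 each was above noise (NCOA4 for siRNA-CDC2 and CDC25B for the others). A description was therefore used beside it, counting genes above noise that lay outside the range of all 7 comparison arrays and at least 0.3 (1.23-fold) from their median. In the siRNA-CDC2 array 139 of 4800 genes (2.9%) were higher and 124 (2.58%) lower by that rule, and in the siRNA-CDC25B array 80 (1.67%) were higher and 39 (0.812%) lower. Regardless of size, 788 (16.4%) were above all 7 and 532 (11.1%) below all 7 in the siRNA-CDC2 array, against 461 (9.6%) and 334 (6.96%) in the siRNA-CDC25B array. Only 1 gene above noise in each array differed by 2-fold or more, COLCA1 in the siRNA-CDC2 array and CDC25B itself in the siRNA-CDC25B array.

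The partners of CDK1 lay close to the comparison arrays. CCNA2, the A-type cyclin, had log2 values of 8.86 and 8.97 in the siRNA-CDC2 and siRNA-CDC25B arrays, against 8.66 to 9.42 (median 9.20) in the comparison arrays. CCNB1, a B-type cyclin, had 11.63 and 11.46, against 11.47 to 11.88 (median 11.58). CCNB2, the other B-type cyclin above noise, had 10.73 and 10.70, against 10.50 to 10.94 (median 10.80). Of these only CCNB1 in the siRNA-CDC25B array lay outside the comparison range, by 0.01, and its other probe set above noise gave a difference of 0.14 there, within range. CKS1B and CKS2, the small subunits that dock substrates on CDK1, differed by 0.17 and 0.14 in the siRNA-CDC2 array and by −0.06 and 0.04 in the siRNA-CDC25B array, all within range.

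The other CDC25 phosphatases were also near their comparison values. CDC25A, which acts at entry into S phase as well as mitosis, had 9.66 and 9.37, against 9.09 to 9.78 (median 9.44). CDC25C was below noise, with 7.27 and 7.25, against 6.89 to 7.64. CDK7 and CCNH, the kinase and cyclin that phosphorylate the activation loop of CDK1, differed by 0.10 and −0.04 in the siRNA-CDC2 array and by −0.02 and 0.00 in the siRNA-CDC25B array. One comparison array carried siRNA-CDK7, and its CDK7 value was 9.29, against 10.43 to 10.75 in the other comparison arrays, which is the long bar in the plot of mitotic entry genes.

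Among the inhibitors of CDK1, the WEE1 kinase stood out in the siRNA-CDC25B array. Its log2 values were 9.03 in the siRNA-CDC2 array and 9.28 in the siRNA-CDC25B array, against 8.50 to 9.10 (median 8.77) in the comparison arrays. The difference of 0.52 in the siRNA-CDC25B array lay above all 7 and was the second highest of 39 siRNA arrays, with an unadjusted limma p of 0.041 and an adjusted p of 1. A second WEE1 probe set, below noise, gave 0.40 and 0.30 in the siRNA-CDC2 and siRNA-CDC25B arrays, above all 7 in both. CDKN1B, the CDK inhibitor p27, was 9.22 in the siRNA-CDC2 array and 9.59 in the siRNA-CDC25B array, against 9.34 to 9.82 (median 9.51), so that it lay below all 7 in the siRNA-CDC2 array only, with no test of that difference past the threshold. GADD45A, which can dissociate CDK1 from cyclin B, lay below all 7 in the siRNA-CDC2 array by 0.23 from the median, and CDKN1A, CDKN1C and CDKN3 were within range in both arrays. Of the 6 inhibitors above noise, 1 was above the comparison median in the siRNA-CDC2 array and 3 in the siRNA-CDC25B array, where 54.6% and 53.9% of all genes were.

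The kinases and phosphatases around mitotic entry were mostly within range. PLK1, which phosphorylates CDC25C and WEE1, had 10.25 and 9.74, against 9.62 to 10.12 (median 9.94), above all 7 in the siRNA-CDC2 array. The AURKA kinase and TPX2, its activator, gave −0.10 and 0.10 in the siRNA-CDC2 array and −0.20 and −0.12 in the siRNA-CDC25B array. ENSA, an inhibitor of the phosphatase PP2A that opposes CDK1, was below all 7 in the siRNA-CDC2 array, at 0.09 below the median. ARPP19, its close relative, was within range in both arrays. Of 11 such genes above noise, 1 in the siRNA-CDC2 array and 0 in the siRNA-CDC25B array passed the description rule, beside 2.9% of all genes higher and 2.58% lower in the siRNA-CDC2 array and 1.67% and 0.812% in the siRNA-CDC25B array. The transcription factors FOXM1 and MYBL2 gave 0.03 and 0.03 in the siRNA-CDC2 array and 0.03 and −0.08 in the siRNA-CDC25B array. MYBL2 was below all 7 in the siRNA-CDC25B array, with 9.40 against 9.44 to 9.60, and the other values were within range.

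**Figure D2:**
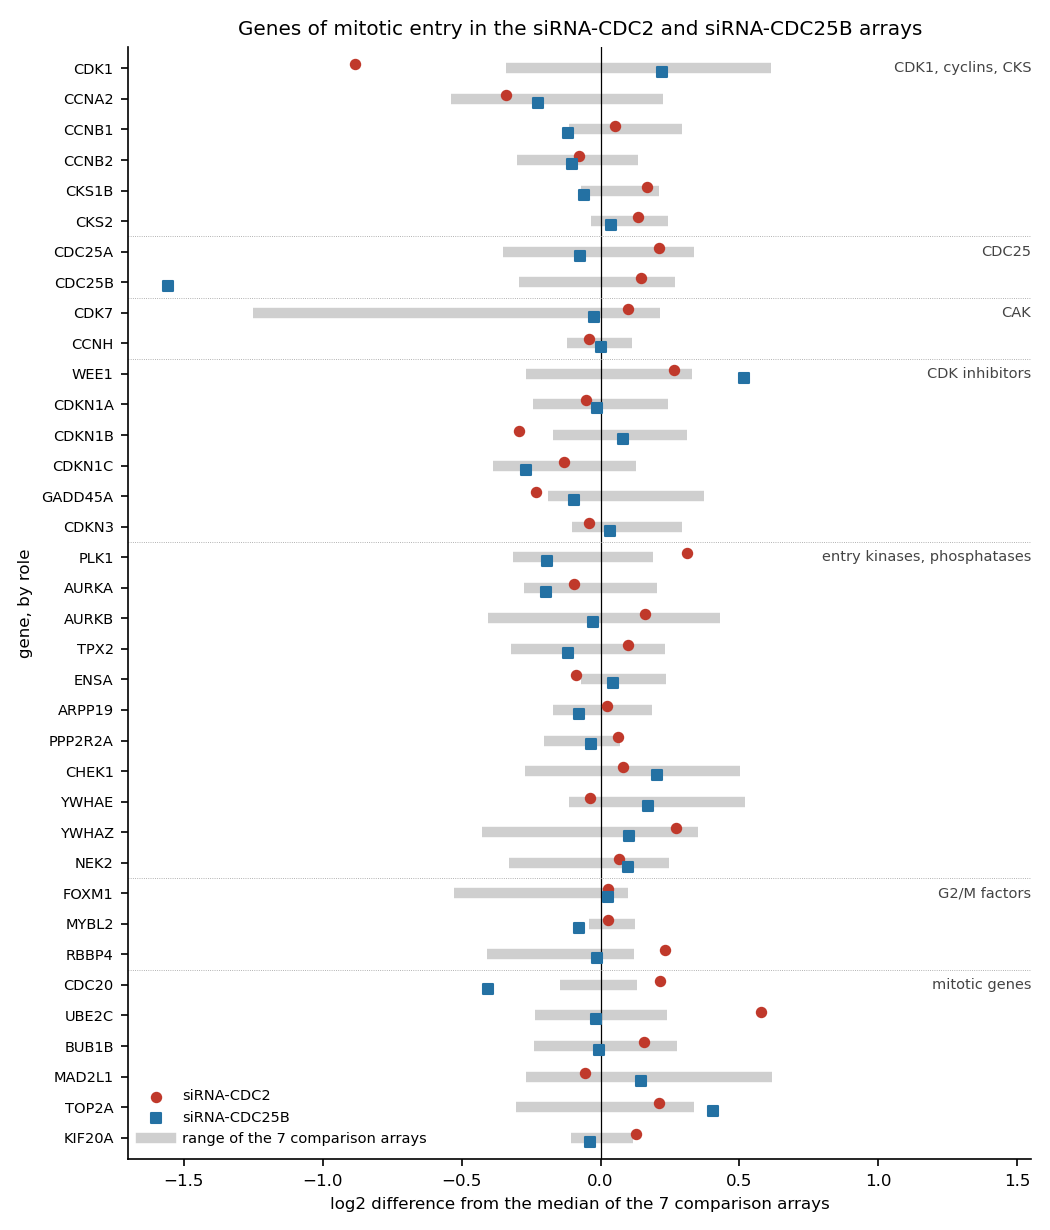
Log2 difference from the median of the 7 comparison arrays (x axis) for genes of mitotic entry by role (y axis), with siRNA-CDC2 as circles, siRNA-CDC25B as squares and the range of the 7 comparison arrays as grey bars. Both targets lie far left of their bars, while most other genes lie on them, with WEE1 (0.52, siRNA-CDC25B) and UBE2C (0.58, siRNA-CDC2) to the right.

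The genes expressed in G2 and mitosis lay, as a list, close to all other genes in both arrays. Of 57 listed, 43 were above noise, and their median difference was 0.07 in the siRNA-CDC2 array and −0.03 in the siRNA-CDC25B array, beside medians of 0.02 and 0.01 over all genes above noise. Without siRNA-TCEA1 or siRNA-CDK7 the siRNA-CDC2 median was 0.02 or 0.04, and without siRNA-RB1 the siRNA-CDC25B median turned to 0.004. In the siRNA-CDC2 array 28 of the 43 (65.1%) were above the comparison median, where 54.6% of all genes were, and in the siRNA-CDC25B array 16 (37.2%), where 53.9% of all genes were. Regardless of size, 5 were above all 7 (11.6%) and 0 below all 7 in the siRNA-CDC2 array, and 1 was above (2.33%) and 4 below (9.3%) in the siRNA-CDC25B array. Over all genes above noise those shares were 16.4% above and 11.1% below in the siRNA-CDC2 array, and 9.6% and 6.96% in the siRNA-CDC25B array. By the description rule 2 of the 43 were higher in the siRNA-CDC2 array (4.65%, beside 2.9% of all genes). In the siRNA-CDC25B array 1 was higher (2.33%, beside 1.67% of all genes) and 1 lower (2.33%, beside 0.812%). In RNA of whole cultures, fewer cells in a phase and less RNA per cell cannot be told apart.

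CDC20 was the mitosis gene that lay outside the comparison range on opposite sides in the arrays. It was 11.57 in the siRNA-CDC2 array and 10.96 in the siRNA-CDC25B array, against 11.22, 11.28, 11.47, 11.49, 11.36, 11.49 and 11.36 in the siRNA-CDK7, CTNNB1, FOXO3A, HSF2, PCNA, RB1 and TCEA1 arrays. The siRNA-CDC2 array was thus the highest of the 9 and the siRNA-CDC25B array the lowest, and the direct difference of 0.62 had an unadjusted limma p of 0.014 and an adjusted p of 1. UBE2C, the ubiquitin-conjugating enzyme that works with the anaphase-promoting complex, was 11.15 and 10.56, against 10.34 to 10.81 (median 10.58), and its difference of 0.58 in the siRNA-CDC2 array was the highest of the 39 siRNA arrays. TACC3 (0.25) and KIF20A (0.13), proteins of the spindle and of the midzone, were also above all 7 in the siRNA-CDC2 array. TOP2A, the topoisomerase that untangles sister chromatids, was 10.61 and 10.81, against 10.10 to 10.74 (median 10.40), but a second probe set above noise gave −0.08 and −0.07. In the siRNA-CDC25B array the motor protein KIF4A (−0.19) and the checkpoint protein BUB3 (−0.10) were below all 7.

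Subunits of the anaphase-promoting complex, which marks cyclin B for destruction, were mostly within range. Of 10 subunits above noise, 3 were above and 7 below the comparison median in the siRNA-CDC2 array (median −0.06), and 4 were above and 6 below in the siRNA-CDC25B array (median −0.02), where 54.6% and 53.9% of all genes were above it. In the siRNA-CDC2 array 3 subunits were below all 7 and 0 above, beside 11.1% and 16.4% of all genes. CDC23 was 8.57 and 8.85, against 8.70 to 9.13 (median 8.87), and CDC27 was 9.16 and 9.47, against 9.27 to 9.59 (median 9.40), both below all 7 in the siRNA-CDC2 array. CDC26 was 10.76 in both, against 10.79 to 11.08 (median 10.88). It was the one subunit below all 7 in both arrays, at a difference of 0.12 that did not reach 0.3.

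Of 31 genes of DNA replication and G1/S above noise, 24 (77.4%) were above the comparison median in the siRNA-CDC2 array and 22 (71%) in the siRNA-CDC25B array, with medians of 0.08 and 0.04, where 54.6% and 53.9% of all genes were above it. The comparison arrays, set against the same median, had list medians from −0.23 (siRNA-PCNA) to 0.35 (siRNA-RB1). Regardless of size, 4 genes (12.9%) were above all 7 in the siRNA-CDC2 array and 3 (9.68%) in the siRNA-CDC25B array. Over all genes those shares were 16.4% and 9.6%. In each array 1 (3.23%) was below all 7, beside 11.1% and 6.96% of all genes. The siRNA-CDC2 array had 3 replication genes higher by the description rule (9.68%, beside 2.9% of all genes). MCM7, a subunit of the replicative helicase, was 11.18 and 10.78, against 10.43 to 10.97 (median 10.76). MCM5, another subunit, was 9.61 and 9.37, against 8.68 to 9.35 (median 9.30), and CHAF1A, a histone chaperone of the replication fork, was 9.49 and 9.30, against 8.89 to 9.39 (median 9.17). No replication gene passed the rule in the siRNA-CDC25B array, although MCM5 was just above all 7 there.

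On the mitosis list the comparison arrays of siRNA-RB1, siRNA-TCEA1 and siRNA-CDK7 lay farther from their batch median than the 2 arrays did. Here each array was set against the others of its batch, in KD1 against the other comparison arrays only. The list median was 0.34 in the siRNA-RB1 array, where 40 of 43 genes were above, and −0.15 in the siRNA-TCEA1 array, where 40 were below. It was −0.12 with siRNA-CDK7, −0.02 with siRNA-PCNA, 0.02 with siRNA-CTNNB1, 0.03 with siRNA-HSF2 and 0.05 with siRNA-FOXO3A. Over all 39 siRNA arrays it ran from −0.57 (siRNA-MITF) to 0.34 (siRNA-RB1), and the siRNA-CDC2 array ranked 25th and the siRNA-CDC25B array 17th from the lowest. siRNA against the B-type cyclins gave 0.28 (siRNA-CCNB1, 42 of 43 genes above) and 0.26 (siRNA-CCNB2, 42 of 43 above), and siRNA-CCNA2 gave 0.08 (31 of 43 above). These cyclin arrays come from other batches with their own comparison arrays, and the differences between them and the siRNA-CDC2 array were not tested.

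**Figure D3:**
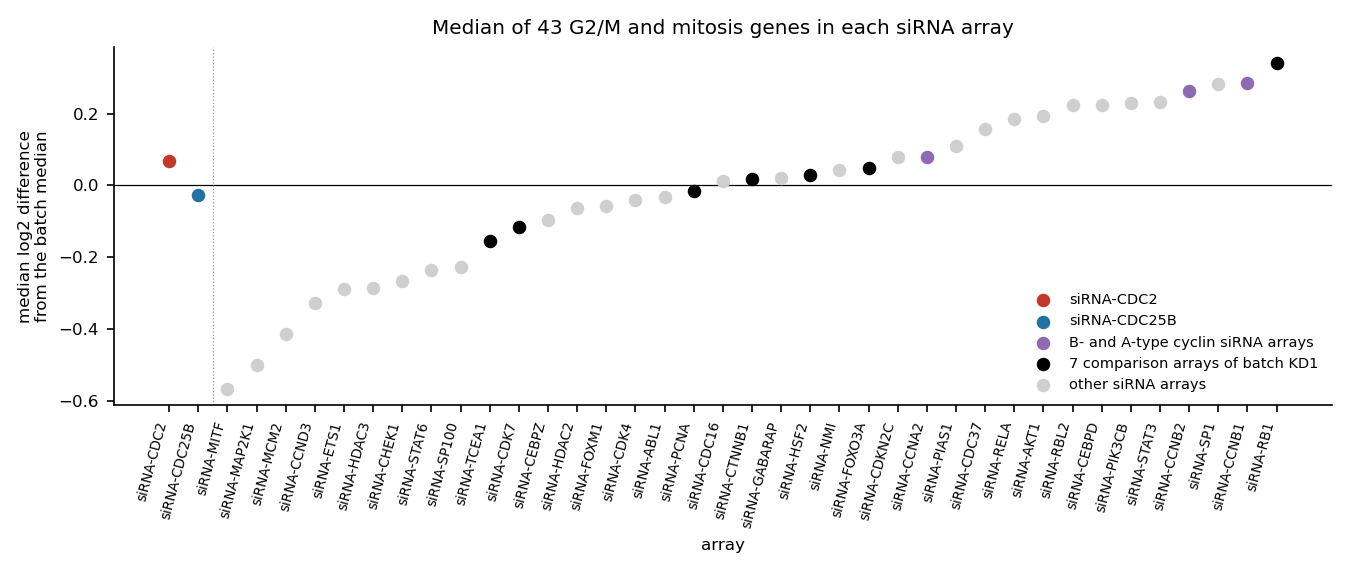
Median over 43 G2/M and mitosis genes of the log2 difference from the batch median (y axis), 1 point for each of 39 siRNA arrays (x axis), the siRNA-CDC2 and siRNA-CDC25B arrays at the left and the others in order of their median. The siRNA-CDC2 (0.07) and siRNA-CDC25B (−0.03) arrays lie in the middle, and siRNA-RB1 (0.34) is highest.

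The genes on the same side in both arrays were 8 higher (0.167% of 4800) and 1 lower (0.0208%). Without the limit of 0.3, 131 genes (2.73%) were above all 7 in both arrays and 68 (1.42%) below. These counts describe the rule and are not a test, since both arrays were set against the same 7, and in limma the mean of both arrays gave adjusted p of 0.988 for each of the 9. They also rest on single comparison arrays. The 8 became 18 without siRNA-CDK7 and 5 without siRNA-TCEA1, and the 1 became 2 without siRNA-CDK7, 4 without siRNA-HSF2, 5 without siRNA-PCNA, 3 without siRNA-TCEA1 and 0 without siRNA-FOXO3A. With the 3 control siRNA arrays as comparison the counts were 157 and 89, of which 2 (LYPLA2 and NDRG1) and 0 were among the genes named here. Higher and lower in this part therefore mean against the 7 comparison arrays, not against control siRNA or untreated cells.

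Of the 8, 5 stayed whichever single comparison array was left out, and these are described first. Leaving out an array cannot widen the range of the others, so only the limit of 0.3 could remove a gene there. With all 39 siRNA arrays and batch as a term, HIBADH and UBE2E2 stayed. With the probe set of largest variance, LYPLA2, NDRG1, S100A16 and UBE2E2 stayed. UBE2E2, a ubiquitin-conjugating enzyme, was 8.75 in the siRNA-CDC2 array and 8.83 in the siRNA-CDC25B array, against 8.72, 8.19, 8.10, 8.03, 8.30, 8.34 and 8.34 in the siRNA-CDK7, CTNNB1, FOXO3A, HSF2, PCNA, RB1 and TCEA1 arrays. JAG1, a ligand of the Notch receptors, was 9.39 and 9.37, against 9.15, 9.30, 8.96, 8.66, 8.92, 8.65 and 8.83 in the same order. HIBADH, a mitochondrial enzyme of valine breakdown, was 8.93 and 8.86, against 8.72, 8.76, 8.30, 8.44, 8.47, 8.43 and 8.42. In control siRNA arrays HIBADH was 8.75, 9.36 and 10.18, and in untreated arrays 9.68, 9.27 and 10.20. Among the 7 comparison arrays, siRNA-CDK7 or siRNA-CTNNB1 came nearest to the 2 arrays for UBE2E2, JAG1 and HIBADH. NDRG1, a gene raised by hypoxia and differentiation, was 9.90 in both, against 9.56, 9.81, 9.81, 9.53, 9.52, 9.44 and 9.54. LYPLA2, a thioesterase that removes palmitate from proteins, was 10.30 and 10.19, against 10.13, 9.76, 9.85, 9.78, 10.09, 9.72 and 9.92. All 4 LYPLA2 probe sets above noise were above the comparison median in both arrays, and both JAG1 probe sets above noise were, although the second of JAG1 (0.53 and 0.16) was within range. A further JAG1 probe set, below noise, was above all 7 in the siRNA-CDC2 array (0.15) and below all 7 in the siRNA-CDC25B array (−0.34).

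The other 4 each fell under the limit of 0.3 when some single comparison array was left out. ZNF277, a zinc finger protein, was 8.56 and 8.61, against 7.86 to 8.52 (median 8.24). In control siRNA arrays ZNF277 was 8.32, 9.08 and 9.84, and in untreated arrays 9.29, 8.91 and 9.94. S100A16, a calcium-binding protein, was 12.08 and 12.19, against 11.53 to 12.05 (median 11.76). BICD1, an adaptor of the dynein motor, was 9.08 and 8.97, against 8.43 to 8.90 (median 8.66), while a second probe set of it, below noise, was below all 7 in both arrays at −0.43 and −0.16. PPIL1, a cyclophilin found in spliceosomes, was the gene lower in both, with 9.20 and 9.07, against 9.21 to 9.83 (median 9.51). Only 0.01 separated its siRNA-CDC2 value from the lowest comparison array. Just inside the limit of 0.3 stood PPIL1, with a smaller difference of −0.31, BICD1 with 0.31, and S100A16 and ZNF277 with 0.32 each. Just outside it stood S100A4 with 0.299 and BCAP29 with 0.295 among the higher genes and PANK3 with −0.27 among the lower.

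None of the 9 belongs to the listed mitosis genes, and their values were also read in cells with siRNA against the cyclins. Of the 8 higher genes, 4 were above the batch median in each of the siRNA-CCNB1, siRNA-CCNB2 and siRNA-CCNA2 arrays, where 51.6%, 55.0% and 55.4% of all genes were, and their medians were 0.01, −0.00 and −0.06. PPIL1 gave 0.05, 0.07 and 0.21 there.

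**Figure D4:**
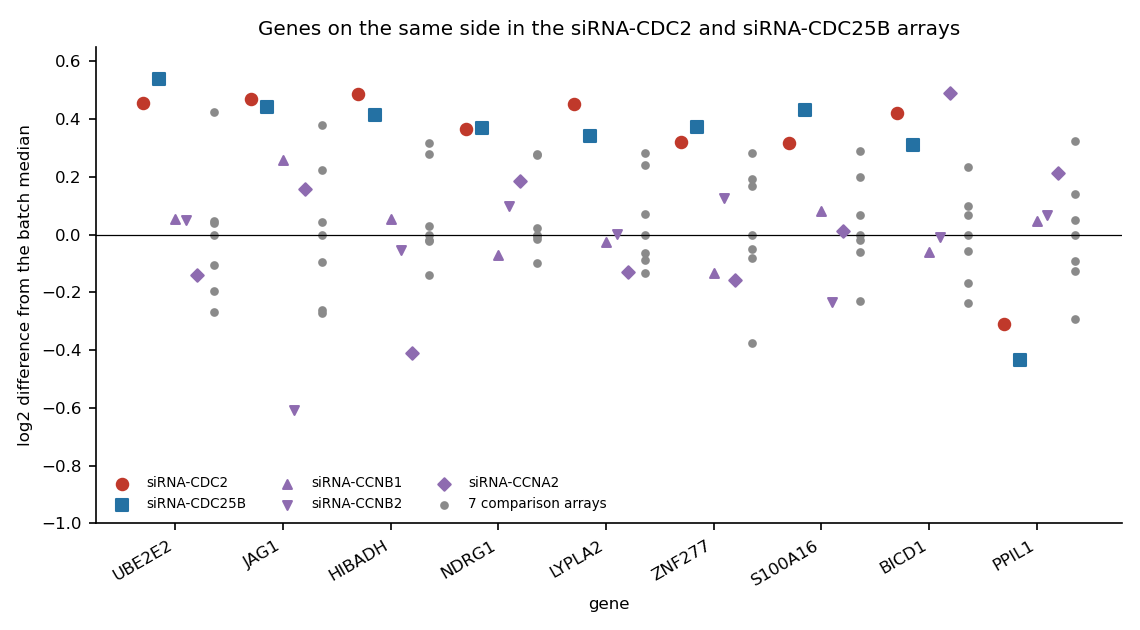
Log2 difference from the batch median (y axis) of the 9 genes outside the comparison range on the same side in both arrays (x axis), with siRNA-CDC2, siRNA-CDC25B, the cyclin siRNA arrays of other batches and the 7 comparison arrays as separate symbols. The first pair lies beyond all grey points for every gene by the rule that chose them, and the cyclin arrays lie on either side of 0.

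**Figure D5:**
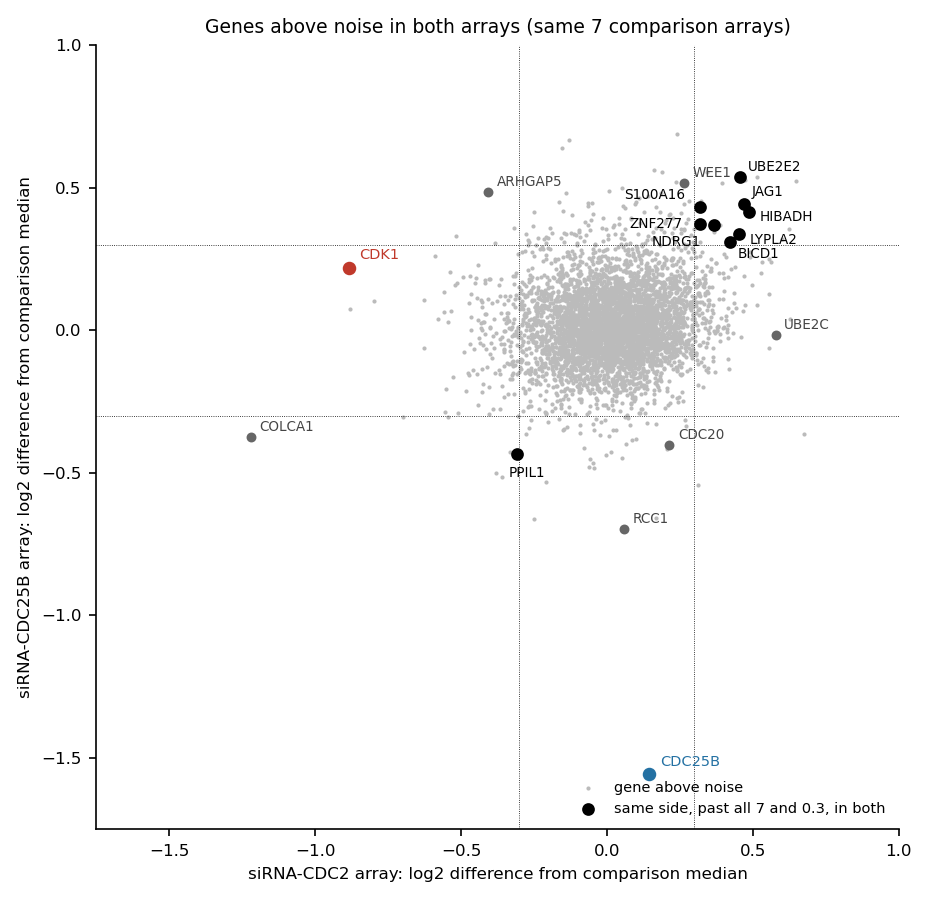
Log2 difference from the comparison median in the siRNA-CDC2 array (x axis) and the siRNA-CDC25B array (y axis) for 4800 genes above noise, 1 point a gene, with dotted lines at 0.3 and the 9 same-side genes in black. Each target is far from 0 on 1 axis only (CDK1 −0.89, CDC25B −1.56), and both axes share their 7 comparison arrays.

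The genes described next are those outside the comparison range with the largest differences in each array, apart from the targets. CXCL8, a chemokine, differed by 0.65 in the siRNA-CDC2 array and 0.52 in the siRNA-CDC25B array, but with 8.75 and 8.63 lay within the comparison range of 7.79 to 9.06. In the siRNA-CDC2 array COLCA1 was 10.88, against 11.27 to 12.60 (median 12.09) in the comparison arrays, a spread of more than 2-fold among the 7. DCAF16 (−0.80) and PDZD8 (−0.88) were next, but in both genes the other probe sets, all below noise, lay at −0.00 or above. On the higher side stood AGPAT1, an enzyme of phospholipid synthesis, with 10.35 against 9.55 to 10.03 (median 9.73). AKT1S1, the inhibitory subunit PRAS40 of mTORC1, had 10.66 against 9.58 to 10.42 (median 10.06). EGR1, the immediate early factor induced by ERK signalling, had 10.60 against 9.72 to 10.21 (median 10.04). Their unadjusted limma p were 0.00975, 0.0172 and 0.00829, each with an adjusted p of 0.971.

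In the siRNA-CDC25B array the lower side was led, after CDC25B, by RCC1, PPP1R12A and SRM. RCC1, the exchange factor that loads Ran with GTP on chromatin, was 9.65, against 9.73 to 10.52 (median 10.35), and its other probe set, below noise, was also below all 7 (−0.35). SRM, spermidine synthase, was 10.63, against 11.06 to 11.44 (median 11.29), while in the siRNA-CDC2 array it was 11.45. The direct difference for SRM was 0.82, with an unadjusted limma p of 0.0046 and an adjusted p of 1. PPP1R12A, the targeting subunit of myosin phosphatase, was 9.12, against 9.50 to 9.95 (median 9.78), and its other probe sets, below noise, gave −0.51 and −0.61.

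The higher side of the siRNA-CDC25B array was led by CD55, a complement inhibitor on the cell surface, with 11.06 against 10.12 to 10.81 (median 10.37). Its other probe sets (0.41 and 0.41) were also above all 7. INHBA, a subunit of activin, was 11.47, against 10.57 to 11.22 (median 10.80), and ITGB3, an integrin chain, was 9.59, against 8.48 to 9.45 (median 9.03). In the siRNA-CDC2 array CD55, INHBA and ITGB3 were at 10.61, 10.67 and 9.19, within range, although 1 of the other CD55 probe sets was above all 7 there (0.20).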

How the data were processed

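The arrays were Affymetrix U133 plus 2.0 arrays of A375 cells, and the values deposited by the authors are linear intensities made with RMA, whose version is not given in the sources used here. They were taken to log2 with no further normalisation. Groups come from the labels and batches from the study's list of siRNA targets (9 arrays in KD1), which gives none for the control siRNA or the untreated arrays. The platform annotation paired 41097 of 54675 probe sets with 1 gene, 1801 with several and 11777 with none, and symbols were updated through RefSeq to 19775 genes, of which 4800 were above noise (an intensity of at least 385, which is 1.5 times the control probe set for the 3′ end of BioB).

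limma 3.58.1 (R 4.3.3) was fitted to the 9 KD1 arrays with siRNA-CDC2 and siRNA-CDC25B as groups of 1 and the 7 others as comparison group (6 residual degrees of freedom), with Benjamini-Hochberg adjustment over all probe sets. It was tested on simulated data first. Arrays have no read depth, and their number limits the precision.

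The genes named are the targets, genes of the mitotic entry lists, the 4 genes of each other list with the largest mean difference, the same-side genes, the 10 genes farthest from the comparison arrays in each direction in each array, and the 10 genes in each direction that differed most between the arrays. S100A4, BCAP29, PANK3, NCOA4, CXCL8 and the mitosis genes outside the range were added after their values were seen. The pair of arrays is defined by its targets, but the pair, the 26 gene lists and the rules were chosen with earlier results of these data known. Alternatives left out each comparison array, used the control siRNA arrays or all 39 siRNA arrays with batch as a term, changed the noise filter, the limit of 0.3, the centre, the probe set of a gene and the moderation of the variance. Differences, counts and list medians came from Python 3.11.15 (scipy 1.17.1, pandas 2.3.3, numpy 2.4.6), and plots from matplotlib 3.10.9. The 6 further targets of the study were not analysed here.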

Additional observations from a re-analysis of the deposited data

Results flagged for a closer look

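ARHGAP5 and WIPI1, a protein of autophagosome formation, lay outside the range of the 7 comparison arrays in opposite directions in the siRNA-CDC2 and siRNA-CDC25B arrays. Both also differed by at least 0.3 from the median of the 7 in each array. ARHGAP5 had log2 values of 8.09 and 8.98, against 8.24 to 8.73 in the comparison arrays, and the siRNA-CDC2 array minus the siRNA-CDC25B array was −0.89. WIPI1 had 7.75 and 8.60, against 7.90 to 8.45, with a difference of −0.85. The adjusted p of the direct comparison was 1 for both in limma. The other 4 ARHGAP5 probe sets were below noise. Of these, 1 lay on opposite sides (−0.08 in the siRNA-CDC2 array and 0.26 in the siRNA-CDC25B array), and 3 were above the comparison median in both, with 0.64, 0.28 and 0.14 in the siRNA-CDC2 array and 0.41, 0.34 and 0.01 in the siRNA-CDC25B array, and the other WIPI1 probe set gave −0.13 and 0.18.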

How the results depend on the processing

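CDC25B in its own array had an adjusted p of 1.41e-06 (difference −1.55) with all 39 siRNA arrays and batch as a term, and of 0.0203 (difference −1.56) over probe sets above noise only. Called probe sets with all 39 arrays were 62 for siRNA-CDC2, 2 for siRNA-CDC25B, 7 for the mean of both and 1 between them. For siRNA-CDC25B 1 was called above noise only and 1 with an intensity trend, which also called 1 between the arrays. The control siRNA arrays as comparison called 0 in limma (1296, 543, 1247 and 408 at an unadjusted p under 0.05). Same-side genes, higher and lower, were 157 and 89 with control siRNA, 2 and 0 with all 39 arrays, 124 and 131 with no noise filter, 37 and 11 at a limit of 0.2, 0 and 0 at 0.5, and 11 and 2 with the probe set of largest variance, and 7 and 3 with the mean of the comparison arrays. Without 1 comparison array they ranged from 5 to 18 and from 0 to 5. The cause of these shifts was not tested. CDK1 ran from −0.99 to −0.86 and CDC25B from −1.56 to −1.54 without 1 array, and both were lower under every alternative. The mitosis list median in the siRNA-CDC2 array was between 0.02 and 0.09 without 1 array. In the siRNA-CDC25B array it was between −0.05 and 0.004 without 1 array and 0.02 with control siRNA, and its sign turned without siRNA-RB1 and with control siRNA. Without 1 array the DNA replication list median was between 0.07 and 0.11 in the siRNA-CDC2 array. In the siRNA-CDC25B array it was then between 0.01 and 0.07, lowest without siRNA-PCNA. With all 39 siRNA arrays the median was 0.04 for siRNA-CDC2 and 0.008 for siRNA-CDC25B, and with control siRNA 0.06 for each. With the probe set of largest variance it was 0.05 and 0.04. No paired analysis was possible because each siRNA here has 1 array and the control siRNA and untreated numbers do not reach these arrays. Dim genes are limited by the signal over background.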

Other observations

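Outside the cell cycle, output genes of the ERK pathway, which the mutant BRAF of A375 cells keeps active, included both higher and lower members in the siRNA-CDC2 array. Of 12 above noise, 9 were above the comparison median in the siRNA-CDC2 array and 9 in the siRNA-CDC25B array, with medians of 0.11 and 0.10, where 54.6% and 53.9% of all genes were above it. ETV4, a transcription factor of the pathway, had log2 values of 10.37 and 10.15, against 9.63 to 10.24 in the comparison arrays. SPRED1, a feedback inhibitor of Ras, had 9.12 and 9.76, against 9.41 to 9.78.

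Genes of the amino acid and ER stress response under ATF4 had a list median of 0.18 in the siRNA-CDC2 array and −0.06 in the siRNA-CDC25B array. In these arrays 6 of 9 and 2 of 9 were above the comparison median, where 54.6% and 53.9% of all genes were. SLC3A2, a chain of amino acid transporters, was above all 7 in the siRNA-CDC2 array (10.13) and below all 7 in the siRNA-CDC25B array (9.67), against 9.70 to 9.97. The survival gene MCL1 had 11.43 and 12.05, against 11.39 to 11.81, and the hypoxia gene BNIP3 had 11.11 and 11.46, against 10.82 to 11.12. P4HA1, a collagen prolyl hydroxylase, had 9.31 and 9.17, against 8.80 to 9.12, above all 7 in both arrays. In limma the adjusted p of these genes was 0.971 or more in each array.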
